A study of Mus musculus with 6 samples.

Results

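The small heat shock protein genes described here are Hspb1, Hspb2, Hspb3, Hspb6, Hspb7, Hspb8, Hspb11 and Cryab, read from the rows of the deposited count table after its Ensembl identifiers were given GENCODE M21 symbols. All 8 were found among the 54385 rows, and 6 of them passed the filter on low counts, as did 14332 genes in all. They were chosen by family name with the genotype differences in these libraries, that of Hspb1 included, already known. The differences between genotypes are therefore given as a description, and each adjusted p is that of the fit across every tested gene.

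Small heat shock proteins are small chaperones that bind unfolding proteins without using ATP and hold them in large oligomers until HSP70 machines can refold them. Most share an alpha-crystallin domain, and several are known best from muscle and lens. Several of their genes respond to heat shock factor 1, which binds inverted repeats of a short core in heat shock promoters, but some members are set mainly by cell type.

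The libraries were made from polyadenylated RNA of brown adipose tissue, the fat depot that burns fuel to make heat. They came from C57BL/6N mice of 20 weeks fed chow, with 3 libraries of ADCY3∆AT, a knockout of the adenylyl cyclase 3 form named Adcy3-AT in the labels, and 3 of wild type (WT, wt/wt). The series title calls that form truncated and induced by cold. The sources used here do not state how the allele was made, which cells lose it, or the sex, housing temperature and collection time of the mice. The labels of the samples give the depot as interscapular and the series text as inguinal.

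Library totals ran from 14799779 to 19592156 estimated counts in ADCY3∆AT and from 13758492 to 17489589 in WT. The Adcy3 row held 168, 195 and 240 CPM (counts at a common library total, scaled by the trimmed mean of M-values) in ADCY3∆AT and 248, 209 and 166 CPM in WT. A row with no symbol, whose identifier ends in the digits of Adcy3, held 1.27, 0 and 0 CPM in ADCY3∆AT and 215, 197 and 118 CPM in WT. All 15 brown adipocyte markers were tested, and their summed level was 16835 to 17686 CPM in ADCY3∆AT and 18637 to 18945 CPM in WT. edgeR and limma-voom called 0 of them and DESeq2 called 1, higher. Of all 14332 tested genes, edgeR called 616, limma-voom 525 and DESeq2 993 in either direction. The unadjusted p of 1 marker was below 0.05, beside 3234 of all tested genes. The log2 fold change was positive for 5 of the 15 markers, beside 48.9% of all tested genes. The genotypes did not overlap for 1 marker, beside 29.0% of all tested genes. Ppargc1a, a coactivator of mitochondrial genes, had the smallest p (38.4 ± 11.1 CPM in ADCY3∆AT and 19.2 ± 4.83 CPM in WT, SD, n = 3 each, edgeR adjusted p = 0.0609). Fabp4, a fatty acid carrier, had the highest mean (6803 ± 280 CPM in ADCY3∆AT and 7776 ± 1118 CPM in WT). In RNA of whole tissue, fewer cells of a type and less RNA per cell cannot be told apart.

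The bases before the start of Hspb1 are printed because Hspb1 had the largest difference of the tested members. Hspb1 (ENSMUSG00000004951, protein coding) lies at chr5:135887919-135889563 on the plus strand of GRCm38. The stretch covers chr5:135887669-135887918, 250 bases with a GC content of 59.2%, from RefSeq on GRCm38.p6, 5′ to 3′. Its capitals mark heat shock elements of 2 inverted core units.
Hspb1 promoter: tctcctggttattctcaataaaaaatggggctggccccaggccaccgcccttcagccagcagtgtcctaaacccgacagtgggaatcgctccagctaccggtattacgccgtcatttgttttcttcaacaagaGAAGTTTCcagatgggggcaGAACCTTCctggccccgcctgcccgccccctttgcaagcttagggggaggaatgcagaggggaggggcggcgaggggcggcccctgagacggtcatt
The search used GAANNTTC and TTCNNGAA for 2 units and GAANNTTCNNGAA and TTCNNGAANNTTC for 3, where N is any base. Each pattern was read on both strands, and a 3-unit match always contains 2-unit matches. The windows held 250 bases before and 50 bases after each RefSeq start.

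Of the 8 genes, 6 had windows in the RefSeq table (7 windows in all), and Hspb2 and Cryab had no entry. A 2-unit element was found for 4 of the 6 and a 3-unit element for 0. Of 26 heat shock response genes described below, 20 had windows. Among these 20, 11 had a 2-unit element and 4 a 3-unit element, so this search also finds no 3-unit element for most of them. Of all genes in that table, 17% had a 2-unit and 0.662% a 3-unit element in at least 1 window, and of all 32851 windows 15.1% and 0.603% held one. The elements of the other members are shown as 30-base stretches for comparison with Hspb1, with the element in capitals.
Hspb8: agaagccaggaGAAGTTTCtaggctcgcga
Hspb6: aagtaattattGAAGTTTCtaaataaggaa
Hspb3: ctccccgaatgGAATTTTCaggcagaggga
Positions are counted from the start, negative before it. The Hspb8 element covers bases 3 to 10 (chr5:116422844-116422873 for the stretch, minus strand). That of Hspb6 lies at -120 to -113 of the second of its RefSeq starts (chr7:30553170-30553199, plus strand), and that of Hspb3 at -224 to -217 (chr13:113663882-113663911, minus strand). The first Hspb1 element, at -117 to -110, has the same 8 bases as those of Hspb8 and Hspb6. The windows of Hspb7 and Hspb11 held no such letters. A match describes the sequence and says nothing of binding.

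Of the 6 tested members, Hspb1 and Hspb8 were higher in ADCY3∆AT brown fat and the others were not called. Hspb1 was 7.81-fold higher and Hspb8 1.65-fold higher. So 2 members were called higher, beside 2.63% of all tested genes, and 0 were called lower by edgeR, DESeq2 or limma-voom, beside 1.67%. A further member, Hspb6, had an unadjusted p under 0.05, with lower values in ADCY3∆AT, so this held for 3 of the 6 members beside 3234 of all 14332 tested genes. In either direction edgeR called 4.30% of tested genes, 377 higher and 239 lower, a split that became 282 higher and 274 lower with upper-quartile factors. The median log2 fold change was 0.014 over the 6 members and -0.0067 over all tested genes. The libraries of the genotypes did not overlap for 3 of the 6 members, beside 29.0% of tested genes.

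**Figure D1:**
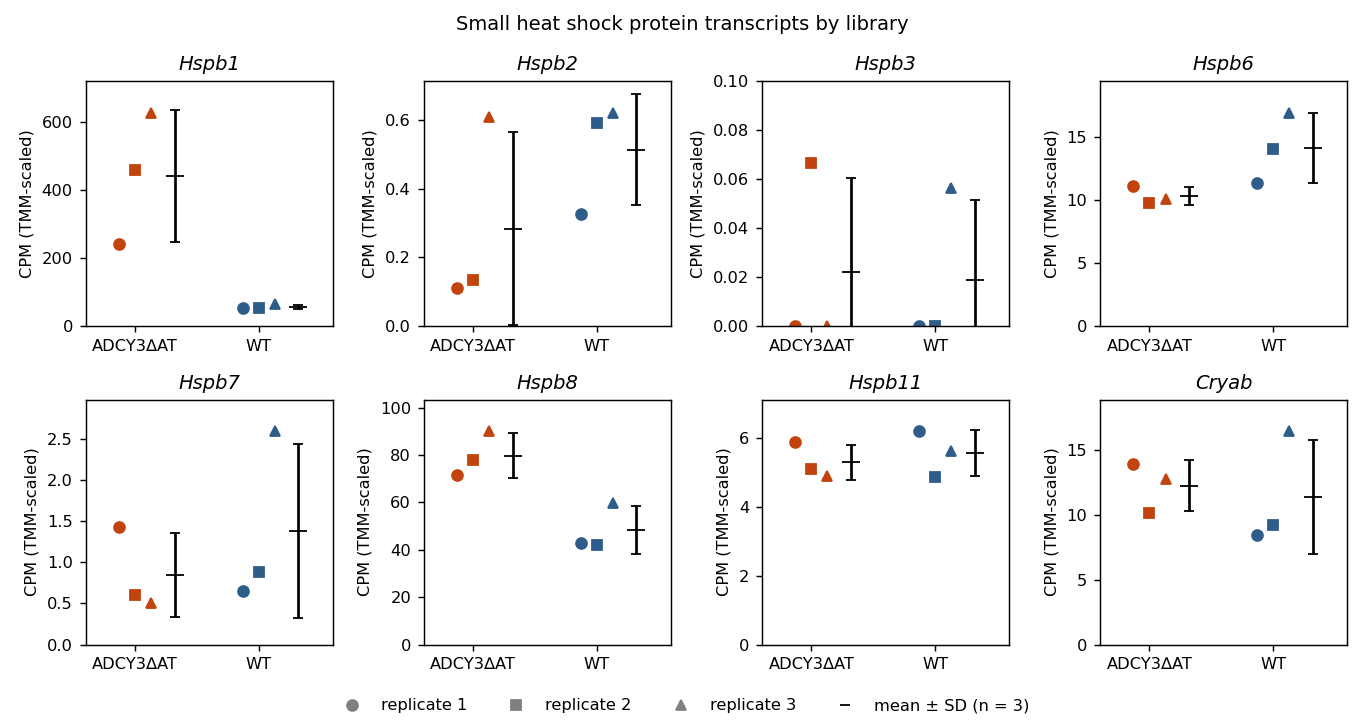
TMM-scaled CPM of the 8 genes in each library, with ADCY3∆AT left of WT in each panel, a symbol for each replicate number, and the mean ± SD (n = 3) as a bar. The 3 ADCY3∆AT libraries of Hspb1 sit between 241 and 627 CPM, all above the 52.2 to 63.7 CPM of WT, while the genotypes overlap for Hspb2, Hspb3, Hspb7, Hspb11 and Cryab.

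Hspb1, known as HSP25 in mice and HSP27 in humans, is a stress-induced chaperone that also binds actin filaments. It held 241, 459 and 627 CPM in ADCY3∆AT replicates 1, 2 and 3, against 52.2, 53.9 and 63.7 CPM in WT replicates 1, 2 and 3. Every ADCY3∆AT library was above every WT library, and replicate 1 was the lowest of the ADCY3∆AT libraries. The highest ADCY3∆AT library held 2.61 times the lowest, whereas in WT this ratio was 1.22. The means were 442 ± 194 CPM in ADCY3∆AT and 56.6 ± 6.20 CPM in WT (SD, n = 3 each). In edgeR the log2 fold change was 2.96, with an SE of 0.31, a 95% interval of 2.26 to 3.67 and an adjusted p of 0.00378. The gene was called in all 6 fits without 1 library, with log2 fold changes of 2.63 to 3.27.

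Hspb8 (ENSMUSG00000041548, chr5:116408491-116422864, minus strand) encodes the small heat shock protein that joins BAG3 and HSP70 to send damaged proteins to autophagy. It held 71.6, 77.8 and 90.0 CPM in ADCY3∆AT and 42.9, 41.9 and 60.0 CPM in WT. The genotypes did not overlap, and replicate 3 was the highest library of each. For this gene edgeR gave a log2 fold change of 0.72 with an SE of 0.15 (95% interval 0.38 to 1.06) and an adjusted p of 0.0369. This call lay near the threshold. It ended with upper-quartile factors (0.68, adjusted p = 0.0509) and when any of 4 libraries was left out: WT replicate 1 (0.65) or 2 (0.63), or ADCY3∆AT replicate 2 (0.74) or 3 (0.63), with adjusted p of 0.0926 to 0.138. Without WT replicate 3 the log2 fold change was 0.91.

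Hspb6 (ENSMUSG00000036854, chr7:30552178-30555443, plus strand) encodes HSP20, which protein kinase A phosphorylates in heart and smooth muscle. It held 11.1, 9.76 and 10.1 CPM in ADCY3∆AT and 11.4, 14.04 and 16.9 CPM in WT. The genotypes did not overlap, but ADCY3∆AT replicate 1 and WT replicate 1 were nearly level. Its log2 fold change in edgeR, -0.45 with an SE of 0.15 and a 95% interval of -0.80 to -0.11, was not called (adjusted p = 0.126). The gene was called, at adjusted p = 0.0452, only with no filter on low counts, and the adjusted p reached 0.282 without WT replicate 3. Its exons share 122 bases with Proser3 and 3 with Lin37 on the other strand. The sources used here do not state whether reads were counted by strand.

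Cryab (ENSMUSG00000032060, chr9:50751325-50756636, plus strand) encodes alpha-B-crystallin, a lens and muscle chaperone that binds desmin filaments. It held 13.9, 10.1 and 12.8 CPM in ADCY3∆AT and 8.42, 9.24 and 16.4 CPM in WT. The genotypes overlapped, with WT replicate 3 the highest of all libraries and the other WT libraries the lowest. The edgeR log2 fold change of 0.10 had an SE of 0.25, a 95% interval of -0.47 to 0.67 and an adjusted p of 0.853. It was 0.48 with WT replicate 3 left out (adjusted p = 0.183), and turned to -0.073 or -0.021 when WT replicate 1 or 2 was the one left out.

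Hspb2 (ENSMUSG00000038086, chr9:50751078-50752354, minus strand) encodes a partner of the myotonic dystrophy kinase and overlaps Cryab by 1030 bases in the annotation, of which 252 are in exons of both. Reads from those exons cannot be told apart without strand. Hspb2 had 2, 2 and 12 counts in ADCY3∆AT and 5, 8 and 11 counts in WT, so the genotypes overlapped. It did not pass the filter. Hspb3 (ENSMUSG00000051456, chr13:113662896-113663676, minus strand), which binds HSPB2 in muscle, had 0, 1 and 0 counts in ADCY3∆AT and 0, 0 and 1 in WT. A count of 0 allows up to 3 counts, which is 0.152 to 0.165 CPM in the ADCY3∆AT libraries concerned and 0.196 to 0.222 CPM in the WT ones, a limit for counting error only. Hspb3 was thus at the limit of detection at this depth and was not tested.

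Hspb7 (ENSMUSG00000006221, chr4:141420779-141425311, plus strand) encodes a heart and muscle member that is needed for sarcomeres to form. It held 1.43, 0.598 and 0.506 CPM in ADCY3∆AT and 0.653, 0.887 and 2.59 CPM in WT. A single library stood high in each genotype, replicate 1 in ADCY3∆AT and replicate 3 in WT, and the genotypes overlapped. With these counts the log2 fold change was -0.73, its SE was 0.60 and its 95% interval ran from -2.10 to 0.64 (edgeR adjusted p = 0.517). It turned to 0.14 without WT replicate 3.

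Hspb11 (ENSMUSG00000063172, chr4:107253593-107279938, plus strand) is named as a heat shock protein but encodes IFT25, a subunit of the intraflagellar transport complex B that carries cargo in cilia. It held 5.89, 5.11 and 4.91 CPM in ADCY3∆AT and 6.20, 4.88 and 5.64 CPM in WT, and the genotypes overlapped. Its log2 fold change was -0.073 with an SE of 0.16 and a 95% interval of -0.44 to 0.29 (edgeR adjusted p = 0.834), and it was 0.011 without WT replicate 1. Of 17 other genes of that complex 16 were tested. edgeR and limma-voom called 0 of these and DESeq2 called 1, lower. Of all 14332 tested genes, edgeR called 616, limma-voom 525 and DESeq2 993 in either direction. The unadjusted p was below 0.05 for 4 of the 16, beside 3234 of all tested genes. The median log2 fold change was -0.053. Those with the smallest p were Ttc30b (12.3 ± 0.515 CPM in ADCY3∆AT and 17.7 ± 2.74 CPM in WT, edgeR adjusted p = 0.0595) and Ift81 (7.30 ± 0.660 CPM in ADCY3∆AT and 10.45 ± 1.21 CPM in WT, adjusted p = 0.0687), both subunits of the complex.

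Levels of different genes were compared as CPM per kilobase of annotated exon. Hspb1 was first in both genotypes (233 to 608 in ADCY3∆AT and 50.7 to 61.8 in WT), and Hspb8 was second (36.7 to 46.2 in ADCY3∆AT and 21.5 to 30.8 in WT). These libraries did not overlap with those of any other member, so both places hold in each genotype. Cryab followed with 6.83 to 9.38 CPM per kilobase in ADCY3∆AT and 5.70 to 11.1 in WT. Hspb6 came next with 4.25 to 4.84 CPM per kilobase in ADCY3∆AT and 4.94 to 7.36 in WT, so its libraries lay below those of Cryab in ADCY3∆AT but overlapped with them in WT. Hspb11 had 2.37 to 2.84 CPM per kilobase in ADCY3∆AT and 2.36 to 3.00 in WT. Hspb2 (0.132 to 0.728 in ADCY3∆AT and 0.391 to 0.743 in WT) and Hspb7 (0.183 to 0.517 in ADCY3∆AT and 0.236 to 0.936 in WT) overlapped in both genotypes. Of the other alpha-crystallin genes, Cryaa of the lens was listed at 0 in every library, and Hspb9 and Odf1, which are known from testis, had at most 4 counts.

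**Figure D2:**
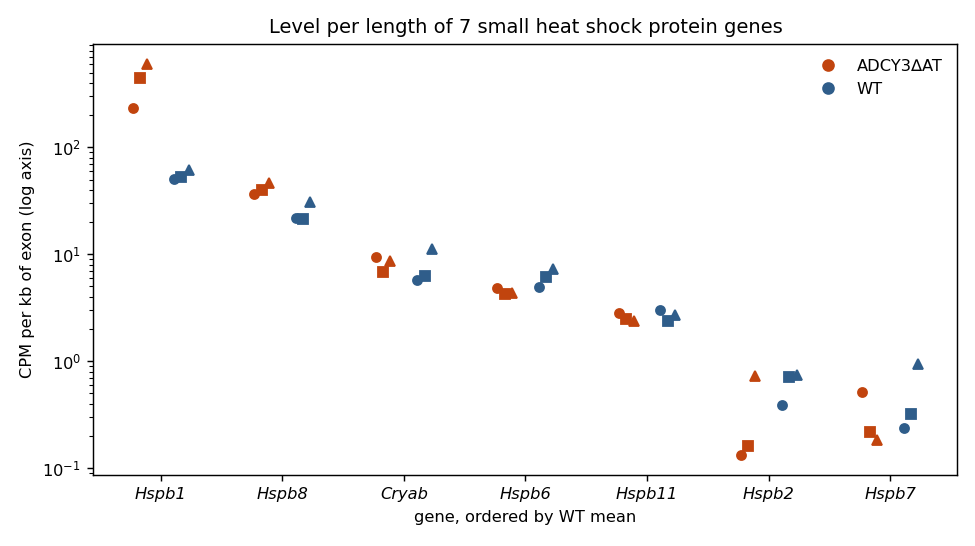
TMM-scaled CPM per kilobase of exon on a log axis for 7 genes, ordered by their WT mean, with ADCY3∆AT points left of WT points and a symbol for each replicate number (Hspb3, with 0 or 1 count per library, is left out). Hspb1 and Hspb8 lead in both genotypes, and the Hspb1 points of ADCY3∆AT (233 to 608) stand furthest from those of WT (50.7 to 61.8).

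The makeup of the family differed with Hspb1. The CPM of the 8 genes summed to 345, 563 and 746 in ADCY3∆AT and to 122, 125 and 166 in WT. Without Hspb1 the sums were 104, 104 and 119 CPM in ADCY3∆AT and 69.9, 71.5 and 102 CPM in WT. Hspb1 took 69.8% to 84.1% of the sum in ADCY3∆AT, against 38.4% to 43.0% in WT. Hspb8 took 12.1% to 20.8% in ADCY3∆AT and 33.4% to 36.2% in WT, although its own level was higher in ADCY3∆AT. These are shares of summed CPM, in which a longer transcript counts for more.

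Other genes of the heat shock response rose alongside Hspb1. Of 26 listed genes, all tested, 19 rose, 0 fell and 7 were not called by edgeR. Over all tested genes, 2.63% were called higher and 1.67% lower. The median log2 fold change of the list was 1.05, beside -0.0067 for all tested genes. Of the 26, 25 had an unadjusted p below 0.05, beside 3234 of all 14332 tested genes. All 26 had a positive log2 fold change, beside 48.9% of all tested genes. The count called higher was 22 by DESeq2 and 16 by limma-voom, beside 598 and 321 of all tested genes. The list was written with earlier results of these libraries known. Hsph1, an HSP110 that exchanges the nucleotide of HSP70, held 150, 325 and 424 CPM in ADCY3∆AT and 20.0, 16.0 and 22.3 CPM in WT (15.4-fold higher, edgeR adjusted p = 0.00235). Hspa4l, of the same family, held 51.4, 80.6 and 84.1 CPM in ADCY3∆AT and 17.0, 20.1 and 17.1 CPM in WT (3.99-fold higher, adjusted p = 0.00235). Stip1, which links HSP70 to HSP90, held 111, 165 and 188 CPM in ADCY3∆AT and 42.9, 39.4 and 47.6 CPM in WT (3.57-fold higher, adjusted p = 0.00311). None of the 3 overlapped between genotypes, which held for 24 of the 26 listed genes and 29.0% of all tested genes. ADCY3∆AT replicate 1 was the lowest of its genotype for each of the 3. These 3 genes were called in all 6 fits without 1 library, but the number called in the list was 7, 8 and 12 with WT replicate 1, 2 or 3 left out in turn, and 10 with ADCY3∆AT replicate 2 left out. Hspa1a and Hspa1b, which the list holds, are near-identical copies whose division of reads is uncertain.

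**Figure D3:**
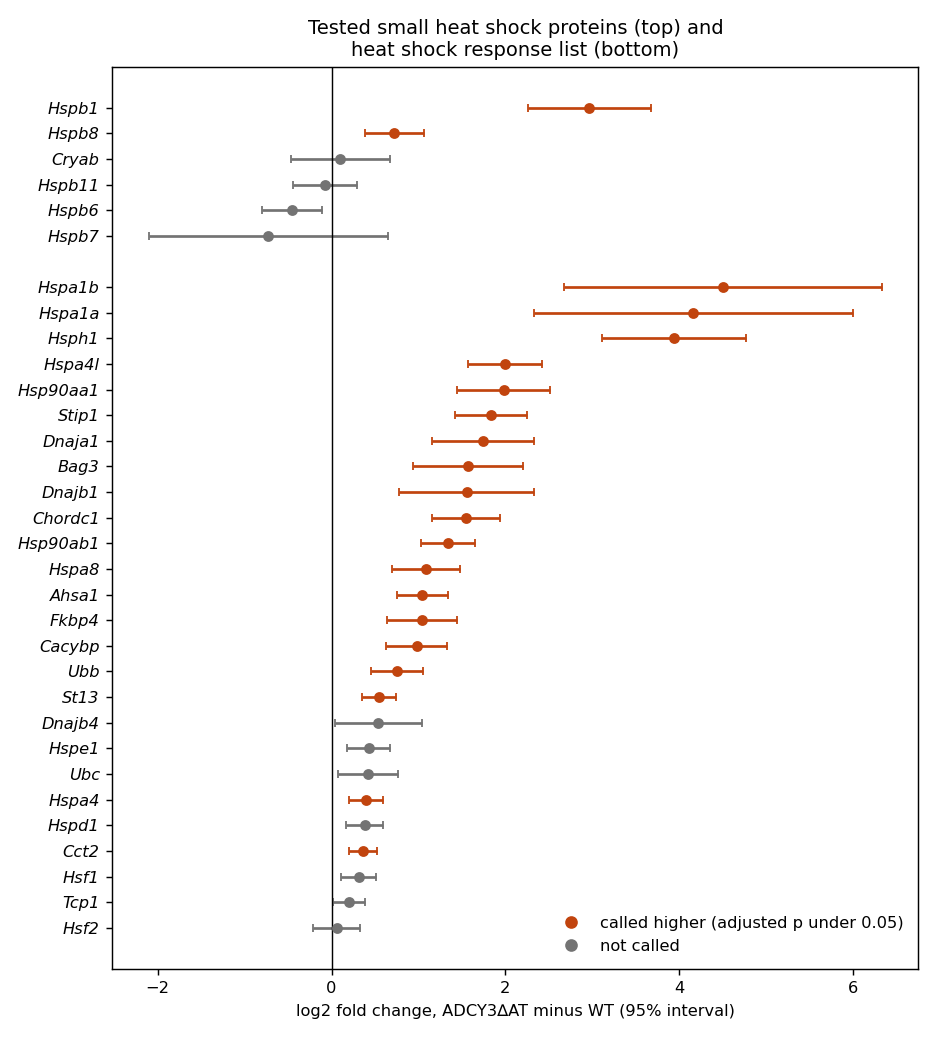
Log2 fold change, ADCY3∆AT minus WT, with its 95% interval from edgeR for the 6 tested small heat shock proteins (top) and the 26 genes of the heat shock response list (bottom), coloured by call. Hspb1 at 2.96 and Hspb8 at 0.72 are called higher, and 19 of the 26 listed genes are called higher with none lower.

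The ADCY3∆AT libraries also differed among themselves in these genes. Replicate 1 was the lowest ADCY3∆AT library for 23 of the 26 heat shock response genes, beside 35.7% of all tested genes. It was the lowest for Hspb1 and Hspb8, but the highest for Hspb6, Hspb7, Hspb11 and Cryab. The summed level of the list was 7003, 10105 and 12093 CPM in ADCY3∆AT replicates 1, 2 and 3, against 4486, 4464 and 5073 CPM in WT. Without ADCY3∆AT replicate 1 the log2 fold change was 3.27 for Hspb1 and 0.81 for Hspb8, and 23 genes of the list were called higher. The sources used here state no batch or date for these libraries, and the part of either in this spread was not tested.

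**Figure D4:**
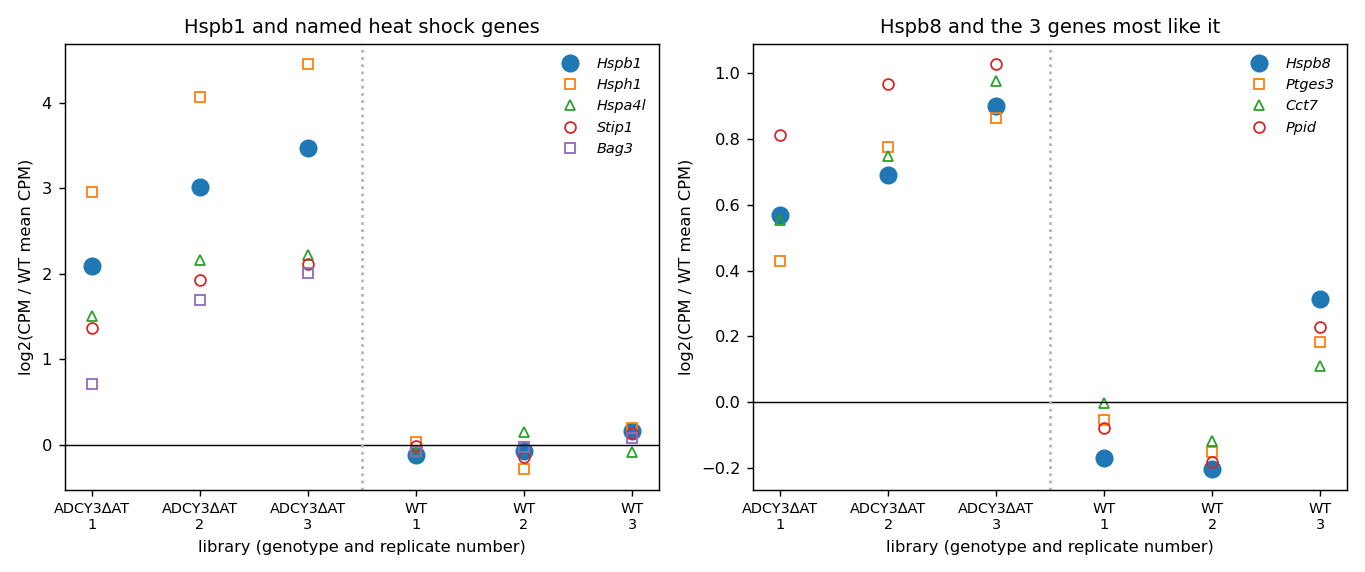
Log2 of CPM over the WT mean CPM in each library, ADCY3∆AT left and WT right of the dotted line, for Hspb1 with Hsph1, Hspa4l, Stip1 and Bag3 (left) and for Hspb8 with Ptges3, Cct7 and Ppid (right). In ADCY3∆AT every gene shown is lowest in replicate 1, where Hspb1 held 241 CPM, and all ADCY3∆AT points lie above all WT points.

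Among partners and kinases of the family, 1 of 17 tested genes rose and 1 fell, beside 2.63% and 1.67% of all tested genes. The unadjusted p was below 0.05 for 6 (3234 of 14332 over all tested genes), and the median log2 fold change was 0.093. Bag3, the co-chaperone that pairs with HSPB8, held 68.4, 135 and 167 CPM in ADCY3∆AT and 39.8, 40.9 and 44.0 CPM in WT (2.97-fold higher, edgeR adjusted p = 0.0231). Bag3 is also in the heat shock response list, as 1 of its 19 genes called higher. Its libraries did not overlap between genotypes. The call ended without any 1 WT library or without ADCY3∆AT replicate 2, and over all 6 fits without 1 library the log2 fold change ran from 1.29 to 1.87. Mapkapk3, a kinase that can phosphorylate HSPB1, held 27.7, 30.0 and 30.5 CPM in ADCY3∆AT and 46.7, 46.4 and 48.2 CPM in WT. It fell by 0.68 on the log2 scale (SE 0.073, edgeR adjusted p = 0.00392) and was called in all 6 fits without 1 library. Protein levels and phosphorylation were not measured.

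Likeness of pattern was measured as the root mean square difference of log2(CPM + 0.5), each gene centred on its own mean, over the 6 libraries and 11685 candidate genes. For Hspb1 the nearest were Thbs1, which encodes thrombospondin 1 (0.251), P4ha1, a collagen prolyl hydroxylase subunit (0.422), and Hsp90aa1, the inducible cytosolic HSP90 (0.479). Thbs1 held 11.7, 23.8 and 20.7 CPM in ADCY3∆AT and 1.502, 1.85 and 1.75 CPM in WT. For Hspb8 the nearest were Ptges3, the HSP90 co-chaperone p23 (0.0996), Cct7, a chaperonin subunit (0.115), and Ppid, a cyclophilin (0.118). Ptges3 held 101, 129 and 137 CPM in ADCY3∆AT and 72.5, 67.8 and 85.6 CPM in WT. Since the genotype difference enters this measure, these genes also differ between genotypes, and all 6 were called higher by edgeR. In fits without 1 library the call of Ptges3 ended without WT replicate 1 or 2 or ADCY3∆AT replicate 2 or 3, and that of Cct7 without WT replicate 1.

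The summed level of skeletal muscle markers was lower in every ADCY3∆AT library than in any WT library. It varied widely among the WT libraries, while Hspb6, Hspb7 and Cryab were not called. The summed level of 22 muscle markers was 47.9, 48.6 and 50.0 CPM in ADCY3∆AT and 72.0, 182 and 860 CPM in WT replicates 1, 2 and 3. Of these sums, Myl1 alone held 43.6, 45.0 and 47.4 CPM in ADCY3∆AT and 43.6, 47.7 and 69.3 CPM in WT. Of the 15 tested markers 8 fell and 7 were not called, beside 1.67% of all tested genes called lower. The unadjusted p was below 0.05 for 13 markers, beside 3234 of 14332 over all tested genes. Most of these markers passed the filter on low counts only through their WT libraries, as Myh4 did with 4, 2 and 1 counts in ADCY3∆AT. Which markers were tested thus depended on the WT level, so the numbers of falls and of small p do not describe all 22. Among the untested markers, Myh7 had 3, 2 and 3 counts in ADCY3∆AT and 2 in each WT library. The other untested markers had lower means in ADCY3∆AT. The number called lower was 0 whenever an ADCY3∆AT library was left out, and 16, 1 and 6 with WT replicate 1, 2 or 3 left out in turn, fits in which more genes passed the filter. None was at 0 in all libraries, and 1 of the 22, Pvalb, was at 0 in each ADCY3∆AT library. Myh4, which encodes a myosin of fast fibres, held 0.220, 0.133 and 0.0506 CPM in ADCY3∆AT and 7.05, 27.2 and 165 CPM in WT. Atp2a1, a calcium pump, held at most 0.330 CPM in ADCY3∆AT and 4.31, 26.8 and 156 CPM in WT, and Tnni2, a fast troponin, at most 0.0664 CPM in ADCY3∆AT and 1.18, 3.47 and 25.1 CPM in WT. Myl1, the marker with the highest mean, held 45.3 ± 1.91 CPM in ADCY3∆AT and 53.5 ± 13.8 CPM in WT and was not called. The calls of Myh4, Atp2a1 and Tnni2 (edgeR adjusted p = 0.0271, 0.0346 and 0.0415) ended without any 1 ADCY3∆AT library. Those of Atp2a1 and Tnni2 also ended without WT replicate 2. By limma-voom 0 of the markers were called, against 13 by DESeq2. Over all tested genes, DESeq2 called 395 lower, limma-voom 204 and the fits without 1 library 78 to 160.

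Among WT libraries, the untested muscle markers Myh1 and Myh7 were highest in replicate 2. WT replicate 3 was the highest WT library for 20 of the 22 muscle markers, including all 15 tested. It was also the highest WT library for 5 of the 6 tested members (Hspb1, Hspb6, Hspb7, Hspb8 and Cryab), beside 36.3% of all tested genes, for 23 of the 26 heat shock response genes and for 13 of the 17 partners and kinases. Without WT replicate 3 the log2 fold change of Hspb6 was -0.30, that of Hspb7 0.14 and that of Cryab 0.48, and edgeR called none of these 3. Hspb1 was still called without it (3.06, adjusted p = 0.0216), as was Hspb8 (0.91, adjusted p = 0.0175). Smooth muscle and mural cells are also known to express Hspb6 and Cryab. Of 12 markers of these cells, 1 fell and 11 were not called by edgeR, beside 1.67% of all tested genes called lower. DESeq2 called 2 of the markers higher and 1 lower, beside 598 higher and 395 lower of all 14332 tested genes. Their summed levels were 721 to 769 CPM in ADCY3∆AT and 622 to 726 CPM in WT. The one that fell was Cspg4, a pericyte proteoglycan (70.1 ± 2.96 CPM in ADCY3∆AT and 103 ± 7.19 CPM in WT, edgeR adjusted p = 0.00933), and Rgs5, with the highest mean, held 365 ± 19.6 CPM in ADCY3∆AT and 293 ± 34.8 CPM in WT. The part of muscle RNA in the values of any member, Hspb1 and Hspb8 included, was not tested.

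**Figure D5:**
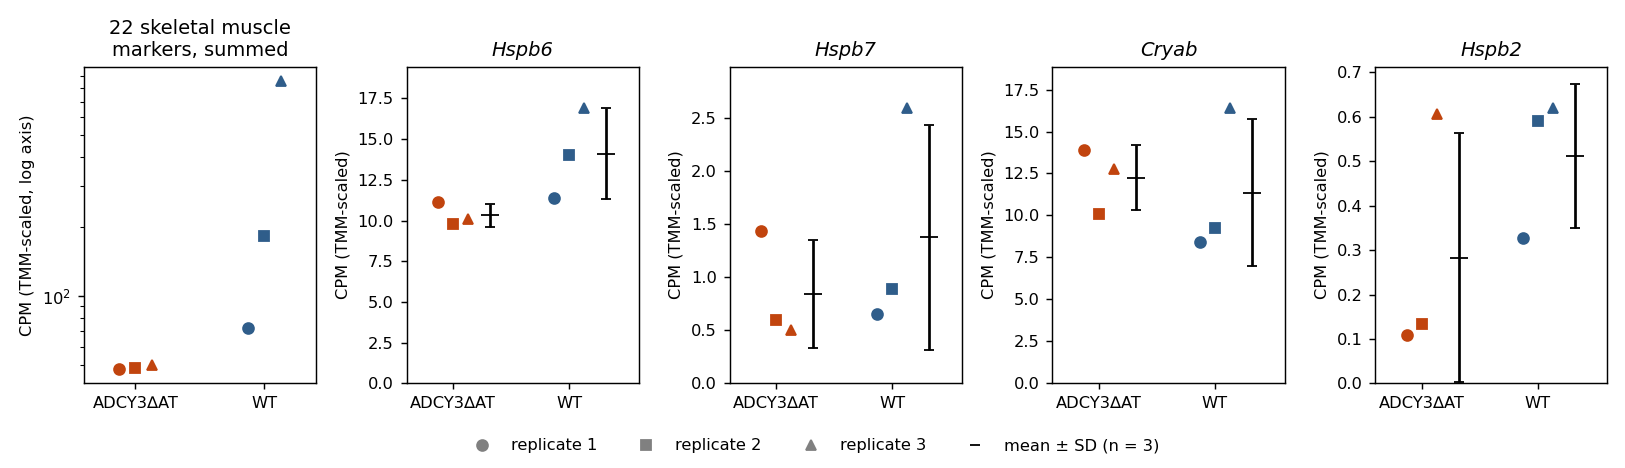
Summed TMM-scaled CPM of 22 skeletal muscle markers on a log axis (left) and CPM of Hspb6, Hspb7, Cryab and Hspb2 on linear axes, by library, with ADCY3∆AT left of WT, a symbol for each replicate number, and mean ± SD (n = 3) for single genes. WT replicate 3 is the highest WT library in every panel, with 860 CPM of muscle markers. The ADCY3∆AT libraries hold 47.9 to 50.0 CPM, of which Myl1 is 43.6 to 47.4 CPM.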

How the data were processed

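The estimated counts of genes in 6 libraries were deposited by the authors as 1 table. StringTie, Salmon, edgeR and the GRCm38 build are named in the submitters' processing notes, without versions or roles. Each column was assigned to a sample through the number in that sample's description. Symbols of GENCODE M21 were found for 54131 of 54385 rows. Estimated counts were rounded, filtered with filterByExpr (minimum count 10, minimum total 15), scaled by TMM and tested with the quasi-likelihood F test of edgeR 4.0.16 (R 4.3.3), all 6 libraries, no covariate, with Benjamini-Hochberg adjustment over 14332 genes and calls under 0.05. SE come from the F statistic. The pipeline was tested on simulated data. Alternatives used DESeq2 1.42.0 and limma-voom (limma 3.58.1), other scalings and filters, a threshold of 0.10, a replicate block, and fits without 1 library.

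The members and gene lists were chosen with earlier results of these data known. The rule for named genes takes all members, up to 3 called genes per list (or the 2 with the smallest p), the highest marker of each marker list, and the 3 genes most like each called member. Between libraries of a genotype the chi-square was 5.75 to 23.4 per gene, above counting noise, so each was counted as a sample. The sources used here do not state that they came from separate mice, so p-values measure only the spread among them, which may be partly technical.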

Additional observations from a re-analysis of the deposited data

How the results depend on the processing

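Hspb1 was called higher under all 14 alternatives that refitted it, with log2 fold changes of 2.63 to 3.27. The number of members called higher, 2 of 6, was 1 with upper-quartile factors and 1 to 2 in the fits without 1 library, and in each case of 1 the call lost was that of Hspb8. The number called lower, 0, was 1 with no filter on low counts (Hspb6, -0.43). Without 1 library the log2 fold change ran from -0.073 to 0.48 for Cryab, -0.15 to 0.011 for Hspb11 and -1.34 to 0.14 for Hspb7, and each of these changed sign. Of all genes, 616 were called, against 993 with DESeq2, 1951 with no filter, 1375 at a threshold of 0.10, 324 with the replicate block and 162 to 461 without 1 library. Heat shock response genes called higher numbered 19, and 7 to 23 without 1 library. These fits have fewer samples, and the cause of each change was not tested. The 2-unit element was found for 4 members and the 3-unit element for 0. With the longest transcript as length, the level of Cryab in ADCY3∆AT was 10.96 and that of Hspb6 5.21 CPM per kilobase. That of Hspb11 was then 3.53 CPM per kilobase in ADCY3∆AT and 3.71 in WT. Same-numbered libraries did not deviate together (r across genes -0.0067, 0.0070 and -0.045) and none correlated best with its own number, so the block pairs only numbers. With it both members stayed called (Hspb1 2.87, Hspb8 0.74). Depth limits Hspb2, Hspb3 and Hspb7, which held at most 46 counts in a library.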
